A study of Mus musculus with 9 samples.

Results

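Kainate receptor genes and the genes of their Neto auxiliary subunits were followed in striatal RNA from R6/2 mice, a model of Huntington disease. The 7 genes, Grik1 to Grik5, Neto1 and Neto2, were taken by symbol from the 18193 genes named on the array, and all 7 were measured, by 14 probe sets. A probe set is the group of short probes that together measure 1 transcript region, and every probe set that the platform annotation gives to 1 of these genes alone was used. The only measured value in this choice was the mean over all arrays, by which the brightest probe set of a gene became its main one, so the brightness ranking of a gene's probe sets is a description. The family was chosen from earlier results of the same R6/2 against wild-type contrast, so the values below describe it and are not independent support for a change.

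Kainate receptors are glutamate-gated cation channels built from 4 subunits. The products of Grik1, Grik2 and Grik3 (GluK1, GluK2 and GluK3) can form channels on their own, while those of Grik4 and Grik5 (GluK4 and GluK5) bind glutamate with higher affinity and reach the surface as working channels only together with GluK1, GluK2 or GluK3. Neto1 and Neto2 are single-pass membrane proteins with CUB domains that join these channels and alter their deactivation and desensitization, and Neto1 has also been found with NMDA receptors. In the striatum, kainate receptors act on the spiny projection neurons, on interneurons and on the terminals of incoming cortical axons.

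The animals were 5 mice with the R6/2 transgene (labelled R62_86, R62_95, R62_105, R62_107, R62_109), and 4 wild-type mice (46, 47, 49 and 66) as their controls. All were females of about 12 weeks on a mixed C57Bl/6 and CBA background, 1 array per mouse, with ages of 83 days for R62_95, R62_105, R62_107 and R62_109 and 85 days for R62_86 and every wild-type mouse. The R6/2 transgene is a fragment of human huntingtin, exon 1 with a lengthened CAG repeat, under its own human promoter, so that it is expressed beyond the striatum and the animals remain an early-onset model of a fragment of the protein. Values are log2 expression, so a difference of -1 is a halving, and the array medians lay between 5.37 and 5.45.

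Against the wild-type mice, 3 of the 7 genes fell in R6/2 mice and 0 rose. These were Neto2, Grik2 and Neto1, whereas Grik1, Grik3, Grik4 and Grik5 did not pass the threshold of 0.05 on the limma p adjusted over all genes. By the same rule 16.9% of all genes passed, 7.57% being lower and 9.28% higher in R6/2 mice. By gene, those 3 also had no overlap between the genotypes, as did 8.09% of all genes in that direction. Counted by probe set, all 8 probe sets of the 3 genes fell with no overlap between R6/2 and wild-type mice, where 6.01% of all probe sets showed such a separation downwards, 10.4% passed the threshold over all probe sets and 4.57% passed it downwards. The other 6 probe sets, of the 4 genes that did not pass, did not pass either. Of these, 5 overlapped, and 1 (Grik4) was higher in every R6/2 mouse than in any wild-type mouse, by a gap of only 0.03. The share of all probe sets separated upwards is not given, so nothing is read from this separation. Since striatal tissue was measured as a whole, fewer cells of a type and less RNA per cell cannot be told apart.

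**Figure D1:**
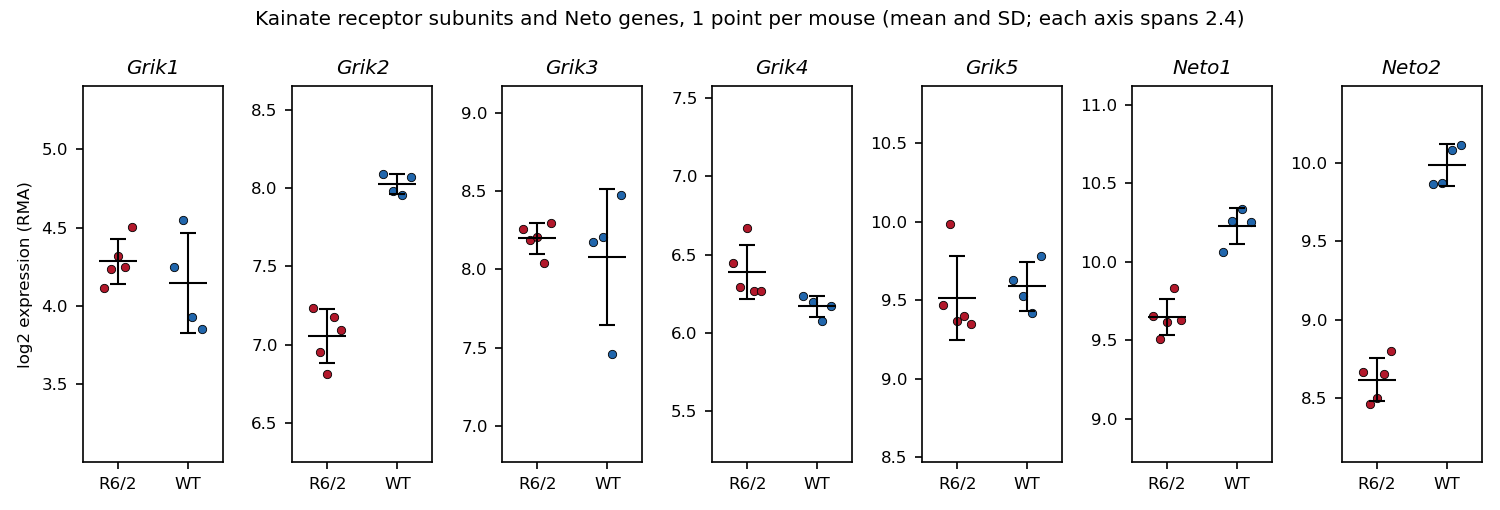
Log2 expression of the main probe set of each gene (vertical axes, each spanning 2.4) in R6/2 (left, red) and wild-type mice (right, blue), 1 point per mouse, with the mean as a line and the SD as bars. The R6/2 points of Grik2, Neto1 and Neto2 lie below all wild-type points, and those of Grik1, Grik3 and Grik5 overlap with them.

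Neto2 (chromosome 8, 85636718 to 85700952 in GRCm38.p6), the auxiliary subunit gene with the lowest difference of the 7, had log2 values of 8.67, 8.47, 8.50, 8.65 and 8.80 in R62_86, R62_95, R62_105, R62_107 and R62_109, against 9.87, 9.87, 10.08 and 10.12 in wild-type 46, 47, 49 and 66. Every R6/2 value was at least 1.06 below the lowest wild-type value, and the spread within either genotype was small beside that gap. The means were 8.62 ± 0.14 in R6/2 mice (SD, n = 5) and 9.98 ± 0.13 in wild-type mice (SD, n = 4), a log2 difference of -1.37 ± 0.09 (SE, limma adjusted p 3.19e-05). The level in R6/2 mice was thus 0.388 of that in wild-type mice. Neto2 had rank 5 of the 18193 genes by p and rank 56 from the lowest log2 difference.

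The other 2 probe sets of Neto2 gave the same direction. The second was 7.0, 6.26, 6.83, 6.91 and 6.99 in R62_86, R62_95, R62_105, R62_107 and R62_109, against 8.13, 8.14, 8.16 and 7.96 in wild-type 46, 47, 49 and 66. Its difference was -1.30 ± 0.14 (limma p adjusted over all probe sets, 0.000838), and R62_95 lay below the other R6/2 mice. The third and dimmest was 5.46, 5.93, 4.95, 5.65 and 5.53 in the R6/2 mice against 6.03, 6.26, 6.71 and 6.78 in the wild-type mice, and differed by -0.94 ± 0.21 (adjusted over all probe sets, 0.0179). Here the groups came within 0.10 of each other.

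Grik2 (chromosome 10, 49093680 to 49790161), which encodes the channel-forming subunit GluK2, was 7.23, 6.96, 6.81, 7.18 and 7.09 in R62_86, R62_95, R62_105, R62_107 and R62_109. In wild-type 46, 47, 49 and 66 it was 8.09, 7.98, 7.95 and 8.07. The wild-type mice lay within a narrow band, and the highest R6/2 mouse stayed 0.72 below it. The means were 7.05 ± 0.17 in R6/2 mice (SD, n = 5) and 8.02 ± 0.07 in wild-type mice (SD, n = 4). Grik2 thus fell by 0.97 ± 0.09 on the log2 scale (SE, limma adjusted p 0.000148), to 0.511 of the wild-type level. A second, dimmer probe set was 5.85, 6.45, 5.63, 6.10 and 6.12 in the R6/2 mice and 6.86, 6.90, 7.25 and 7.23 in the wild-type mice, again without overlap. Its difference was -1.03 ± 0.16 (limma p adjusted over all probe sets, 0.00374).

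Neto1 (chromosome 18, 86394815 to 86506721), the auxiliary subunit gene with the smaller fall, was 9.66, 9.51, 9.62, 9.83 and 9.63 in R62_86, R62_95, R62_105, R62_107 and R62_109, against 10.06, 10.26, 10.33 and 10.26 in wild-type 46, 47, 49 and 66. The R6/2 mice were lower throughout, and the gap between the groups was 0.23. The means were 9.65 ± 0.12 in R6/2 mice (SD, n = 5) and 10.23 ± 0.12 in wild-type mice (SD, n = 4), a difference of -0.58 ± 0.08 (SE, limma adjusted p 0.00105), or 0.669 of the wild-type level. Its other probe sets differed by -0.73 ± 0.10 and -0.64 ± 0.07, with limma p adjusted over all probe sets of 0.00184 and 0.000987. In both, the gap between the highest R6/2 and the lowest wild-type mouse (0.48 and 0.45) was wider than in the main one.

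Age, tissue composition and single mice were set against these 3 falls. Leaving out any 1 mouse kept all 3 calls, with Neto2 between -1.41 and -1.32, Grik2 between -1.01 and -0.91 and Neto1 between -0.64 and -0.55. With age in days as a covariate, where R62_86 alone shares the age of the wild-type mice, Neto2 stayed past the threshold (-1.32, limma adjusted p 0.0199), while Grik2 (-0.79, 0.0603) and Neto1 (-0.57, 0.127) did not. In that fit 30 of the 18193 genes passed, beside 3066 without age, and the SE of Grik2 was 0.14 beside 0.09. This fit parts age from genotype through R62_86 alone, so effects of age and of genotype cannot be told apart. The mean log2 value of 11 measured cortex projection neuron markers was 6.85 to 7.73 in R6/2 and 6.17 to 7.18 in wild-type mice, and with that score as a covariate Neto2 was -1.27, Grik2 -0.92 and Neto1 -0.46 (limma adjusted p 0.00164, 0.00744 and 0.0456). The corresponding score of 9 choroid plexus and ependyma markers was 5.33 to 6.88 in R6/2 and 5.74 to 8.48 in wild-type mice. Without the 3 arrays highest in it (wild-type 47, wild-type 66 and R62_107) the differences were -1.37, -1.0 and -0.60, all past the threshold. Of all genes, 526 passed with the cortex score as a covariate and 882 without those arrays. Astrocyte markers (9 of 16 fell, score 9.45 to 9.58 in R6/2 and 9.67 to 9.88 in wild-type mice) and microglia markers (5 of 15 fell, 6.97 to 7.39 in R6/2 and 7.41 to 7.95 in wild-type mice) were also lower in R6/2 mice. So were the scores of the indirect pathway (3 of 3 measured markers fell, 9.0 to 9.96 in R6/2 and 11.12 to 11.56 in wild-type mice), of the direct pathway (5 of 8 fell, 7.61 to 8.28 in R6/2 and 8.61 to 8.83 in wild-type mice) and of cholinergic interneurons (3 of 4 fell, 4.85 to 5.42 in R6/2 and 5.64 to 5.91 in wild-type mice), all without overlap between the genotypes. Of 11 markers of GABAergic interneurons 3 fell, and their scores overlapped (6.98 to 7.27 in R6/2 and 7.03 to 7.22 in wild-type mice). Beside these marker counts, 7.57% of all genes fell in the fit with genotype only. The part of these cell types in the 3 falls was not tested.

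**Figure D2:**
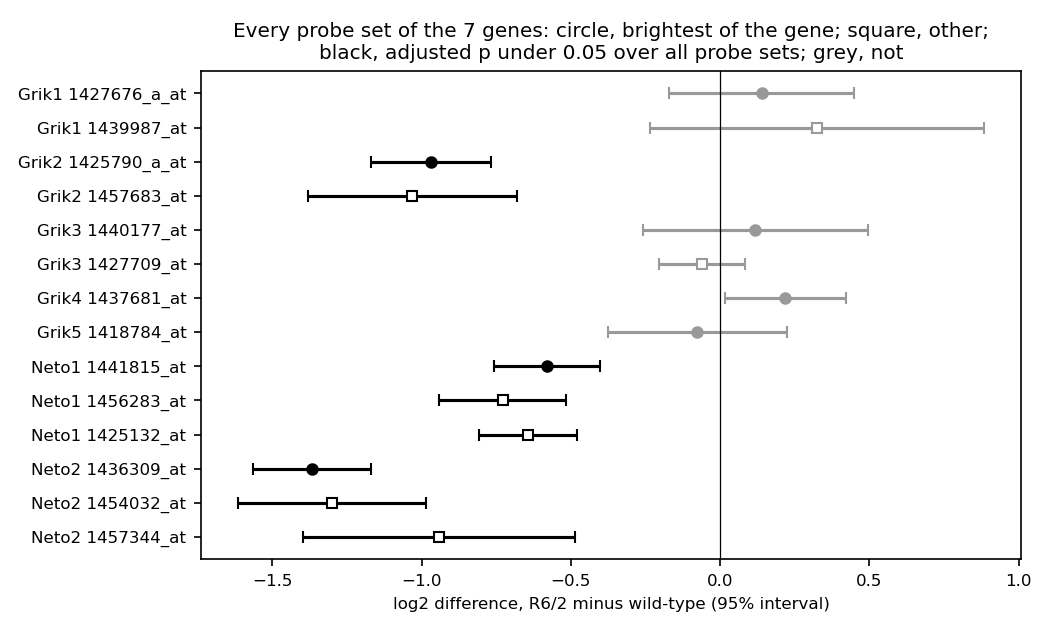
Log2 difference of R6/2 minus wild-type (horizontal axis) for each of the 14 probe sets, with the 95% interval of limma as bars; circles mark the main probe set of a gene, squares the others, and black those past the threshold over all probe sets. The 8 probe sets of Grik2, Neto1 and Neto2 lie between -1.37 and -0.58, and the 6 of the other genes between -0.08 and 0.32.

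The starts of Grik2 and Neto2 are shown because the transcripts of both genes fell, with the start of Grik5, whose transcript did not pass, for comparison. Each sequence is the 250 bases before a start listed in RefSeq's table for GRCm38.p6, written 5′ to 3′ along the gene. Capitals mark GC boxes, matches to the letters GGGCGG on either strand. Such windows were searched for 5 of the 7 genes (Grik2, Grik3, Grik4, Grik5 and Neto2). Neto1, which also fell, was left out of this search, as was Grik1, so nothing is said of their starts. Neto2 has a second listed start, at which the window (chr8:85691010-85691259, minus strand) holds 0 GC boxes. On the minus strand, the annotated spans of Grik2 (to 49790161) and Grik5 (to 25075694) reach further upstream than these windows, which thus lie inside the genes, and that of Neto2 (to 85700952) ends within its window. Which start these probe sets measure was not tested.
Grik2 (chr10:49788755-49789004, minus strand): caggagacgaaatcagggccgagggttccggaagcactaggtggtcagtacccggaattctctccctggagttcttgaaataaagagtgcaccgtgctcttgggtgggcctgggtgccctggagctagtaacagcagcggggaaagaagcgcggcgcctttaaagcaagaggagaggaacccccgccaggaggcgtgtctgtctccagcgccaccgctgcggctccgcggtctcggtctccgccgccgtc
Neto2 (chr8:85700925-85701174, minus strand): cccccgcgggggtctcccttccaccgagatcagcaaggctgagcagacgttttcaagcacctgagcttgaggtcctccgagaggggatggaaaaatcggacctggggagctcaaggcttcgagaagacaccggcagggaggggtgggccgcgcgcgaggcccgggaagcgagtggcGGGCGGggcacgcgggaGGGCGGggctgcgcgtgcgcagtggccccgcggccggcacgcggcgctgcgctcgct
Grik5 (chr7:25072370-25072619, minus strand): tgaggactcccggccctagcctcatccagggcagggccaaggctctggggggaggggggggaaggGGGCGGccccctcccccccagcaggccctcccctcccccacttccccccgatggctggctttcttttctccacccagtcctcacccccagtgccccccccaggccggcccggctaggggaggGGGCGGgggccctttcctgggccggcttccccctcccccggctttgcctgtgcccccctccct
GC content was 62.8% for Grik2, 72.0% for this start of Neto2 and 75.2% for Grik5, above the median of 52.4% over the 32851 windows of that length. The Neto2 window holds 2 GC boxes, the first bases of which lie 74 and 57 bases before the start, the Grik5 window holds 2 and the Grik2 window 0, while 32.7% of all windows hold at least 1. Of the windows not shown, that of the second Neto2 start had 42.4% GC, below the median of 52.4%. Those of Grik3 and Grik4, which did not pass, had 82.0% and 69.6%, with 6 GC boxes and 1. None of the windows of the 5 genes holds the Egr site GCGNGGGCG (found in 4.70% of all windows), the cyclic AMP response element TGACGTCA (1.55%) or the TATA box TATAAA (12.4%), all searched on both strands. These are matches of letters in a window and say nothing of the binding of a factor.

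Among the channel-forming subunits, Grik3 and Grik1 did not pass. The main probe set of Grik3 was 8.26, 8.19, 8.20, 8.04 and 8.29 in R62_86, R62_95, R62_105, R62_107 and R62_109, against 8.17, 8.20, 7.46 and 8.48 in wild-type 46, 47, 49 and 66. The wild-type mice thus spanned the R6/2 mice on both sides, with wild-type 49 the lowest of all 9. The difference was 0.12 ± 0.17 (SE, limma adjusted p 0.669), with a 95% interval from -0.25 to 0.48, and without wild-type 49 it was -0.088. The second probe set of Grik3, at 5.65 ± 0.09 in R6/2 mice (SD, n = 5) and 5.71 ± 0.06 in wild-type mice (SD, n = 4), gave -0.06 ± 0.06 (limma p adjusted over all probe sets, 0.60), with an interval from -0.21 to 0.08.

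Grik1 was dim. Its main probe set was brighter than 32.2% of all probe sets on the array. It was 4.11 to 4.5 in R6/2 mice and 3.85 to 4.55 in wild-type mice, and the groups overlapped. The difference was 0.14 ± 0.14 (SE, limma adjusted p 0.529), with an interval from -0.16 to 0.44, and turned to -0.033 with age and -0.12 with the cortex score as a covariate. The other probe set, dimmer still, gave 0.32 ± 0.25 (limma p adjusted over all probe sets, 0.469).

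The high-affinity subunit genes Grik5 and Grik4 did not pass either. Grik5, brighter than 93.4% of all probe sets, was 9.47, 9.98, 9.36, 9.40 and 9.35 in R62_86, R62_95, R62_105, R62_107 and R62_109, against 9.63, 9.53, 9.42 and 9.78 in wild-type 46, 47, 49 and 66. R62_95 was the highest of all 9 mice, and 3 of the other R6/2 mice lay below every wild-type mouse. The difference was -0.08 ± 0.13 (SE, limma adjusted p 0.732), with an interval from -0.37 to 0.21, and without R62_95 it was -0.19 (adjusted p 0.142). It turned to 0.035 with the cortex score as a covariate and to 0.018 without the 3 arrays highest in choroid plexus markers.

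The 1 probe set of Grik4 was 6.45, 6.30, 6.67, 6.27 and 6.27 in R62_86, R62_95, R62_105, R62_107 and R62_109, against 6.23, 6.20, 6.08 and 6.17 in wild-type 46, 47, 49 and 66. All R6/2 mice were above all wild-type mice, by a gap of 0.03, and no share of all genes separated upwards is given here for comparison. The difference was 0.22 ± 0.09 (SE, limma adjusted p 0.125), with an unadjusted interval from 0.02 to 0.42. It was 0.15 without R62_105, 0.08 with the cortex score as a covariate and 0.11 when the arrays were centred on 5 housekeeping genes.

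The change of Grik2 was set against that of each other member through the per-mouse difference of the 2 log2 values. It was lower than that of Grik4 by 1.19, of Grik1 by 1.11, of Grik3 by 1.09 and of Grik5 by 0.89. Since these genes are grouped here by whether they passed the same contrast, these distances are a description. By the main probe sets, Grik2 fell by more than Neto1 (difference of the changes -0.39) and by less than Neto2 (0.40), each without overlap between the genotypes. In an exact permutation test (two-sided) that ran through every split of the 9 mice, both had p 0.00794, the smallest this design allows. Adjusted over 7 comparisons it was 0.00926. These 7 include the descriptive comparisons with Grik1, Grik3, Grik4 and Grik5, which had the same p, so the adjusted value leans on them. Probe sets can respond to a given change with different strength. With the mean of each gene's probe sets the difference of Grik2 was -0.35 from Neto1 and 0.20 from Neto2 (adjusted exact p 0.0370 and 0.0333). Both then overlapped between the genotypes. The dimmest probe set of Neto2 (-0.94) fell by no more than those of Grik2 (-0.97 and -1.03), so the order of Grik2 and Neto2 depends on the probe set. Neto2 fell by more than Neto1 (-0.79, exact permutation p 0.00794, adjusted 0.0238 over the 3 comparisons added after the data were seen), at -0.55 with the mean of the probe sets.

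The same test set the members against 28 measured markers shared by spiny projection neurons, such as Ppp1r1b. All of these markers fell, where 7.57% of all genes did. The mean log2 value of these markers was 9.17 to 9.88 in R6/2 mice and 10.85 to 11.16 in wild-type mice, a difference of -1.31. Members and markers were chosen with earlier results of this contrast known, so the count of markers that fell and the distances between members and markers are a description. The comparisons of Neto1 and Neto2 with the marker score were also added after the data were seen. No difference between Neto2 and this score was detected (difference of the changes -0.06, exact permutation p 0.698). Neto1 fell by less (0.72, exact p 0.0159, adjusted 0.0238, and 0.46 with the mean of the probe sets). Grik2 also fell by less than the score (0.34, exact p 0.0317), but with the mean of the probe sets the difference was 0.11 (adjusted exact p 0.246), and with 8 mice the call was lost in 7 of 9 cases (adjusted exact p 0.0286 to 0.0714). Tests of 8 mice had only 56 or 70 splits, so their p moved in coarse steps, while the difference was 0.28 to 0.41. In R62_105 the marker score was lowest of all mice, and there both probe sets of Grik2 were lowest as well. The main probe sets of Neto1 and Neto2 were lowest in R62_95, but 1 other probe set of Neto1 was lowest in R62_109 and the dimmest of Neto2 in R62_105.

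**Figure D3:**
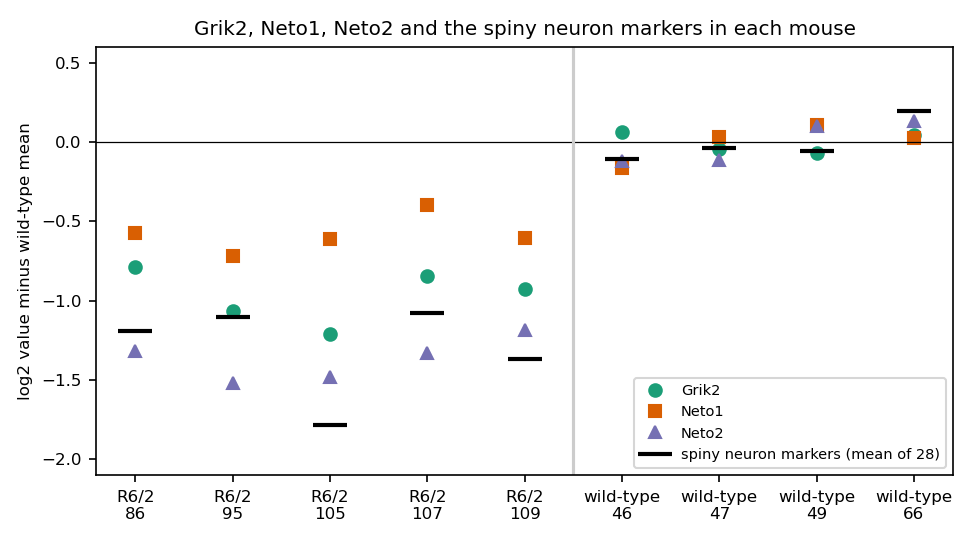
Log2 value minus the wild-type mean (vertical axis) of Grik2 (circles), Neto1 (squares), Neto2 (triangles) and the mean of the 28 spiny projection neuron markers (bars) in each mouse. In each of the 5 R6/2 mice Neto1 has the smallest fall of the 3 genes, Grik2 the middle one and Neto2 the lowest value of the 3.

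For each of the 3 genes that fell, the genes most like it in pattern were sought among 16339 others, by the root mean square difference between the mouse-by-mouse deviations from the wild-type mean, over 9 mice. This measure takes in the genotype difference, so the genes it finds fell by a like amount. The 5 nearest to Grik2 were Thsd7a (0.09 on the log2 scale), the cyclic AMP phosphodiesterase gene Pde7b (0.09), the kinase gene Camkk2 (0.10), the Rag GTPase gene Rragd (0.11) and Ddn, which encodes the dendritic protein dendrin (0.12). For Neto2 they were Dock4, an activator of Rac (0.08), the cannabinoid receptor gene Cnr1 (0.12), the growth factor gene Hbegf (0.14), the activin-type receptor gene Acvr1c (0.15) and Arpp21, a cyclic AMP-regulated phosphoprotein (0.16). For Neto1 they were Skil, a corepressor of Smad signalling (0.06), the ubiquitin ligase gene Fbxo32 (0.09), the SNARE gene Vti1b (0.09), Cep126 (0.09) and Dguok, a mitochondrial nucleoside kinase (0.10). The median over all genes searched was 0.74 for Grik2, 1.02 for Neto2 and 0.45 for Neto1. Camkk2, Cnr1 and Arpp21 are in the list of spiny neuron markers.

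Of the other glutamate receptor genes and the auxiliary subunits of AMPA receptors, 30 of 34 listed were measured, of which 12 fell and 2 rose by limma over all genes, at a median of -0.15 beside -0.02 for all genes. Of all genes 7.57% fell and 9.28% rose in that fit. Among the AMPA receptor subunits, which carry most fast excitation, Gria3 fell by 0.26 ± 0.08 (adjusted p 0.0369), while Gria1 (0.16), Gria2 (-0.01) and Gria4 (0.05) did not pass. Of 6 measured NMDA receptor subunits Grin2c fell by 0.49 ± 0.12 and Grin3a rose by 0.89 ± 0.20, and Grin2a (0.10), Grin2b (-0.39), Grin2d (0.07) and Grin3b (-0.05) did not pass. The delta receptor gene Grid1 fell by 0.47 ± 0.08. Of 6 measured metabotropic receptors, which signal through G proteins, Grm4 (-0.84 ± 0.17), Grm3 (-0.79 ± 0.12) and Grm5 (-0.65 ± 0.10) fell.

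Auxiliary subunits of AMPA receptors showed the lowest difference among these 30 genes. Of 13 measured, 6 fell and 1 rose, against the same shares of all genes. Gsg1l, which slows recovery of AMPA receptors from desensitization, fell by 1.52 ± 0.13 (SE, limma adjusted p 0.000111), Cacng4 by 1.05 ± 0.22, Shisa9 by 0.80 ± 0.15, Cacng3 by 0.66 ± 0.15, Cnih2 by 0.32 ± 0.07 and Cacng2, the gene of stargazin, by 0.31 ± 0.08, while Cnih3 rose by 0.59 ± 0.17. With the cortex score as a covariate, 1 of the 30 genes fell (Gsg1l, -1.34) and 0 rose, where 1.66% of all genes fell and 1.23% rose. Without the 3 arrays highest in choroid plexus markers 5 of the 30 fell and 0 rose (2.69% and 2.16% of all genes), and with age as a covariate Gsg1l alone fell (-1.56; 0.143% of all genes).

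**Figure D4:**
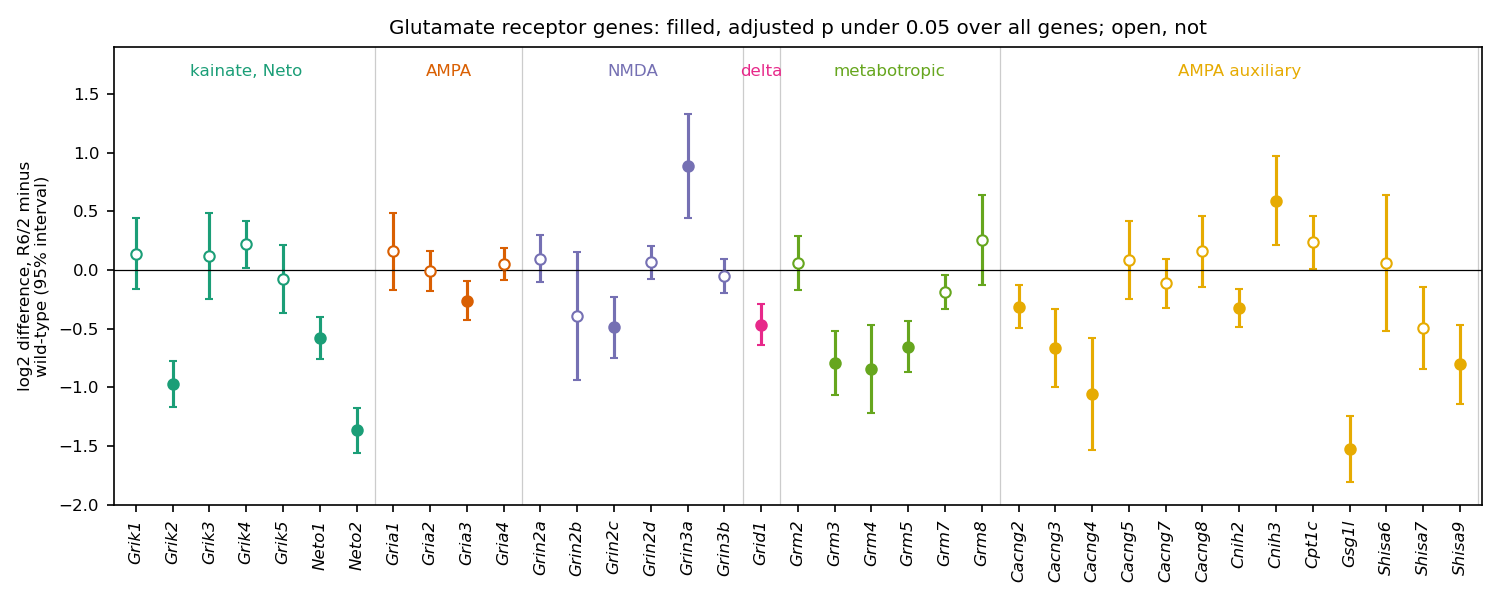
Log2 difference of R6/2 minus wild-type (vertical axis) with the 95% interval of limma for the 7 kainate receptor and Neto genes and 30 other glutamate receptor and AMPA auxiliary genes, coloured by family; filled points passed the threshold over all genes. Gsg1l (-1.52), Neto2 (-1.37), Cacng4 (-1.05) and Grik2 (-0.97) are the lowest points.

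Genes whose products have been reported to bind, cluster, traffic or modify kainate receptors went both ways. Of 30 measured, 7 rose and 5 fell, at a median of 0.09, where 9.28% of all genes rose and 7.57% fell. The scaffold genes Dlg4 (-0.63 ± 0.10) and Dlg2 (-0.54 ± 0.12), the protein kinase C gene Prkcb (-0.62 ± 0.07), the calmodulin kinase gene Camk2b (-0.61 ± 0.10) and the kinesin gene Kif17 (-0.66 ± 0.12) fell. C1ql3, a secreted protein that recruits kainate receptors at hippocampal mossy fibre synapses, rose by 1.69 ± 0.37, the calcium sensor gene Vsnl1 by 0.94 ± 0.24, the cadherin gene Cdh2 by 0.39 ± 0.08 and Crmp1 by 0.39 ± 0.10. Ncam1 (0.37), Ctnnb1 (0.33) and Ywhae (0.27) were the other rises. Of the 11 cortex markers 4 rose and 1 fell. With their score as a covariate 0 rose and Prkcb and Dlg4 fell (1.23% and 1.66% of all genes), C1ql3 was 0.56 (adjusted p 0.0911) and Vsnl1 0.22. Without the 3 arrays highest in choroid plexus markers 0 rose and Prkcb alone fell (2.16% and 2.69% of all genes), and with age as a covariate 0 changed. Centring on housekeeping genes gave 3 rises and 6 falls (3.83% and 13.9% of all genes). Without wild-type 49, or without R62_105, 4 rose (9.34% and 6.39% of all genes). Of the 3 genes of RNA-editing adenosine deaminases, the enzyme family that recodes a pore site of GluK1 and GluK2, 0 passed, with Adarb1 at 0.01, Adarb2 at 0.13 and Adar at 0.18.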

How the data were processed

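Per the submitters' processing notes, the authors' deposited log2 values were made with RMA of the affy package, which corrects background, brings all arrays to one distribution and summarises each probe set. Software versions were not given in the sources used here. Because of the shared distribution, a difference is relative to the other genes. No 2 arrays were alike enough to be 1 sample (highest correlation 0.995, at most 3.93% identical values). Array number limits precision.

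Of 45101 probe sets the platform annotation listed 35890, of which 34945 named 1 gene, 932 several and 13 were controls, and 9211 were not listed. The 64 controls in all were left out. Symbols were updated through RefSeq (GRCm38.p6), for 34741 of them. Dim probe sets were kept. The brightest probe set stood for a gene. Genotypes were compared with limma 3.58.1 in R 4.3.3 (lmFit, eBayes, genotype only), with Benjamini-Hochberg adjustment over 18193 genes, or 45037 probe sets where stated. Tests were two-sided, and SD and SE are over mice. The test was tested on simulated data.

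The members, the 21 lists and the alternatives were chosen with earlier results of these data known. Named were all members, every gene of the AMPA and NMDA lists, genes of the related lists past the threshold, and the 5 genes nearest to each changed member; values of Adar, Adarb1 and Adarb2 were added after they were seen. Alternatives were the mean of probe sets, all probe sets, brighter genes, quantile, median and housekeeping scaling, other eBayes settings, array weights, no moderation, age and cortex covariates, and mice left out. Figures used matplotlib 3.10.9.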

Additional observations from a re-analysis of the deposited data

Results flagged for a closer look

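Each genotype's values were searched for a highest or lowest mouse standing far from the rest (Dixon's test at 95%), over the 14 probe sets and both genotypes, 28 groups in all. Chance flags about 1 in 20 groups, and 4 stood out. For Grik5, R62_95 was 9.98, while the next R6/2 mouse was 9.47. For the second probe set of Neto2, R62_95 was 6.26, with the nearest R6/2 mouse at 6.83, and wild-type 66 was 7.96, with the nearest wild-type mouse at 8.13. For the dimmer probe set of Grik1, wild-type 46 was 4.55, with the nearest wild-type mouse at 3.58. R62_95 was thus apart for 2 of the 14 probe sets, upwards for Grik5 and downwards for Neto2. Without it Grik5 was -0.19 and Neto2, by its main probe set, -1.33.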

How the results depend on the processing

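Neto2 kept its direction and its call under all 21 alternatives, and Grik2 and Neto1 under 20 of 21, each losing its call with age as a covariate (-0.79 and -0.57). Grik4 stayed positive and did not pass under any. The small differences of the other 3 changed sign, namely Grik1 to -0.033 with age and -0.12 with the cortex score as a covariate, Grik3 to -0.0015 with array weights and -0.088 without wild-type 49, and Grik5 to 0.035 with the cortex score and 0.018 without the 3 arrays highest in choroid plexus markers. With each mouse left out in turn, Grik1 was 0.04 to 0.27, Grik3 -0.09 to 0.25, Grik4 0.15 to 0.25 and Grik5 -0.19 to -0.01. The number of genes past the threshold was 3066 in all, 2183 to 2984 with a mouse left out, 2006 without moderation, 30 with age, 526 with the cortex score, 882 without the 3 arrays, and 4683 when every probe set was tested. With the dimmer genes left out, Grik1 and Grik4 were not tested.

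Of the differences between changes, those of Grik2 from Grik1 (-1.20), Grik3 (-1.42), Grik4 (-1.26), Grik5 (-1.02), Neto1 (-0.40), Neto2 (0.37) and the spiny neuron score (0.28) could not pass without the 3 arrays, where 4 mice against 2 allow too few splits. The same holds for Neto2 against Neto1 (-0.77) and Neto1 against the spiny neuron score (0.69). Grik2 against the spiny neuron score was 0.11 with the mean of the probe sets and 0.28 to 0.41 with a mouse left out, and Neto2 against it was -0.15 to 0.028, changing sign without R62_95. With housekeeping centring the median of all genes was -0.12, Neto2 -1.47, Grik2 -1.07 and Neto1 -0.69. No paired analysis was possible because the genotypes share no replicate numbers. Depth is not defined for arrays, and of the 7 genes Grik1 had the dimmest signal.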
